A study of Mus musculus with 38 samples.

Results

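The livers of fasted mice at 22 h (F_22h, 3 libraries) were compared with the livers of mice fed ad libitum at the same time (AL_22h, 3 libraries). These 6 libraries were chosen by their time and diet alone, out of 38 libraries in the series, and the comparison ran over 13786 genes that passed the count filter, of 21954 in the table. Ad libitum feeding means free access to food, and the labels give no further detail of the fast. The mice of both groups were female, wild-type and of the C57BL/6 background. Ages in the labels were 36, 37 and 38 months in F_22h and 29, 30 and 31 months in AL_22h, in a list that rises by 1 month from sample to sample, and age as labelled cannot be told apart from the fast. The hours carry no stated starting event, and separate animals are not stated for the replicates, and p-values here measure the spread between libraries. Messenger RNA of whole liver was sequenced, and the 6 libraries held between 17285836 and 22567836 counts. Levels are in CPM, counts scaled to the normalised library size, changes are log2 fold changes of F_22h over AL_22h followed by their standard error, and a gene was called when its adjusted p in edgeR's quasi-likelihood test was under 0.05. In bulk tissue, fewer cells of a type and less RNA per cell cannot be told apart.

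During a fast, fat released from adipose tissue reaches the liver, where it is burned in mitochondria and peroxisomes, turned into ketone bodies, or stored for a time in lipid droplets. The fatty acid receptor PPARA switches on many genes of that route, and glucagon, glucocorticoids and the FOXO factors switch on genes of glucose production. Feeding does the reverse, in part through insulin. Feeding raises the transcription factors SREBP1c and ChREBP and with them the enzymes of glycolysis and fat synthesis. The sterol-sensing factor SREBP2 governs the enzymes of cholesterol synthesis.

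Before the results, 1 library has to be named. The first principal component, which held 46.5% of the variance of the 6 libraries, placed F_22h between 23.7 and 59.4 and AL_22h between -44.8 and -36.8. The second, with 20.0%, set AL_22h 2 (-52.4) apart from AL_22h 1 (28.5) and AL_22h 3 (24.6). The library closest to AL_22h 2 among all 38 was AL_0h 2 (r = 0.980 over genes), not a library of its own group. The clock genes of AL_22h 2 went against those of its group. Arntl, which encodes the activator BMAL1, had 4.35, 4.16 and 6.64 CPM in F_22h and 2.499, 31.5 and 3.12 CPM in AL_22h. Its partner Npas2 had 0.0506, 0 and 0.282 CPM in F_22h and 0.127, 17.6 and 0.0892 CPM in AL_22h. The clock output gene Dbp had 39.5, 64.0 and 30.9 CPM in F_22h and 75.6, 0.887 and 54.3 CPM in AL_22h. AL_22h 2 thus had the highest Arntl and Npas2 and the lowest Dbp of the 6. The repressor gene Per2 was lowest in it too, at 9.01 CPM. AL_0h 2 differed from it, with 7.07 CPM of Arntl, 1.17 CPM of Npas2 and 74.1 CPM of Dbp. In these 3 genes the AL livers at 6 h (AL_6h) lay nearer to AL_22h 2. They had 20.8 and 30.5 CPM of Arntl, 22.4 and 15.5 CPM of Npas2, and 2.14 and 2.60 CPM of Dbp. Per2 was at 14.3 CPM in AL_0h 2 and at 28.8 and 18.0 CPM in AL_6h. The reason was not tested.

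**Figure D1:**
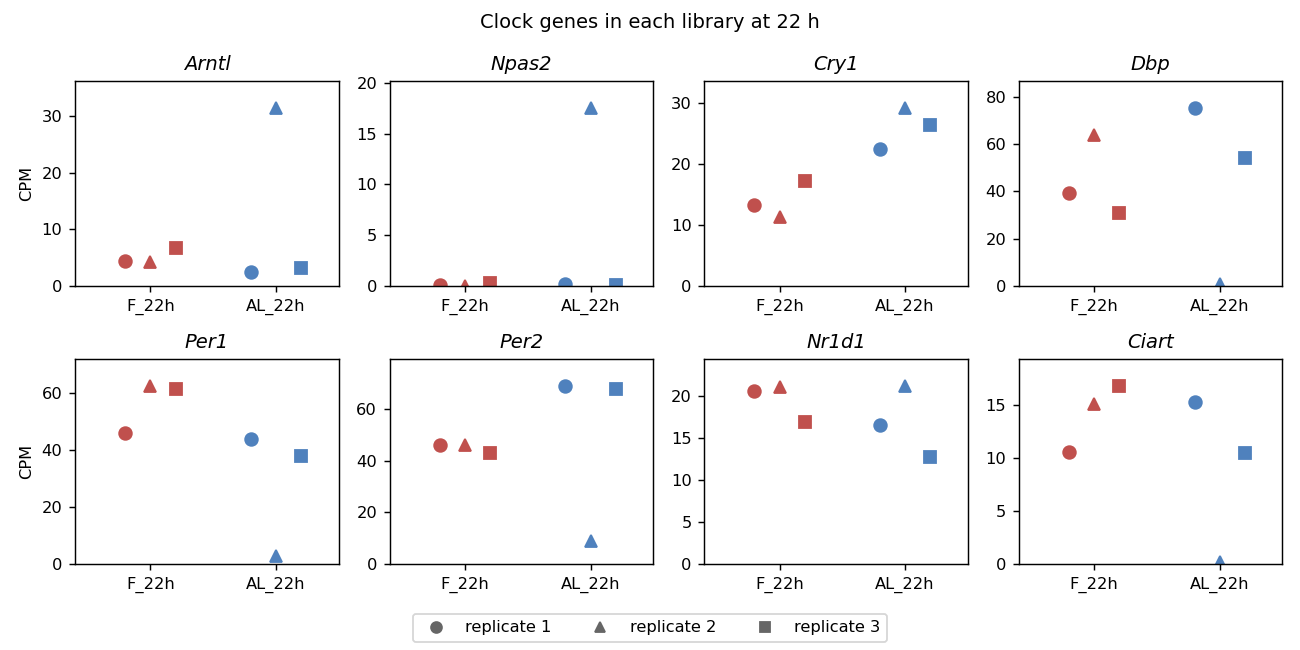
Levels of 8 clock genes in CPM (linear axis from 0) in each library of F_22h and AL_22h, with 1 symbol per replicate number. AL_22h replicate 2 sits far from AL_22h replicates 1 and 3 in Arntl, Npas2, Dbp, Per1, Per2 and Ciart.

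Many of the counts below are therefore also given without AL_22h 2 or another single library. Of 28 tested genes of the core clock and its outputs, none rose and 2 fell (1 and 1 without AL_22h 2), where 6.06% of all tested genes were higher and 5.4% lower. These were Tspan4, a tetraspanin gene, and Npas2. Npas2 changed by -5.50 ± 1.48 with every library (adjusted p = 0.0147) and by 0.19 without AL_22h 2 (adjusted p = 0.962), so its call rested on that library. It was lost too without F_22h 1 or F_22h 2, and in 3 limma fits on rescaled TPM with every library, at -0.9552, -1.5147 and -0.9552 (adjusted p = 0.228, 0.367 and 0.330). Arntl, at -1.28 ± 0.68, was not called, and was at 0.85 without AL_22h 2. The call of Tspan4 (-0.9996 ± 0.29) was lost without AL_22h 1, AL_22h 3, F_22h 1 or F_22h 2.

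Across all genes, 836 were higher (6.06%) and 745 lower (5.4%) in F_22h, which is 11.5% of those tested. Each list count below is to be read beside these shares. The median change over all tested genes was -0.03. A change of at least 1 on the log2 scale was reached by 403 of the higher and 361 of the lower genes, and a change of at least 3 by 52 and 25. Without AL_22h 2 the counts were 759 higher and 577 lower, and 1107 of the 1581 calls remained. The count fell to 604 without F_22h 1, 754 without AL_22h 1, 899 without AL_22h 3 and 939 without F_22h 2, and 439 genes kept their call in each of the 6 fits that left out 1 library. Across genes the change increased with length of transcript (Spearman's rho 0.225): among the 3446 longest transcripts 351 genes were higher and 76 lower, and among the 3454 shortest 141 were higher and 266 lower.

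Ppp1r3g, which encodes a subunit that brings a phosphatase to glycogen, had the largest change of the 15 largest rises, which were taken from calls whose mean in 1 group reached 5 CPM and whose groups did not overlap. It had 32.0, 12.5 and 0.765 CPM in F_22h, against 0.127, 0 and 0.0892 CPM in AL_22h (7.58 ± 1.49, adjusted p = 0.00155). The groups did not overlap, but the 3 fasted livers differed widely among themselves. Cidec, whose protein lets lipid droplets fuse, had 172, 29.7 and 28.3 CPM in F_22h and 1.61, 0.266 and 0.892 CPM in AL_22h (6.36 ± 0.98). Cpt1b, the muscle form of the enzyme that admits fatty acids to mitochondria, was at 22.6, 2.68 and 4.02 CPM in F_22h and at most 0.424 CPM in AL_22h (5.65 ± 0.94). Fgf21, a liver hormone of fasting, had 48.5, 13.04 and 8.05 CPM in F_22h and 0.847, 0.222 and 1.16 CPM in AL_22h (4.95 ± 0.86). In each of these, F_22h 1 was the highest library. Further genes among the 15 largest rises were Aqp4, a water channel gene (4.51 ± 0.76), Lepr, the leptin receptor gene (3.76 ± 0.70), and Lamb3, which encodes a laminin chain (3.57 ± 0.58).

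Among the largest falls were Thrsp, Angptl8 and Car3. Thrsp, a gene of lipogenic tissue, had 22.5, 49.4 and 132 CPM in F_22h and 1637, 182 and 1583 CPM in AL_22h (-4.06 ± 0.79, adjusted p = 0.00135). AL_22h 2 was the lowest of its group and still above every fasted liver. Angptl8, a feeding-induced inhibitor of lipoprotein lipase, had 4.66, 3.53 and 10.6 CPM in F_22h and 87.9, 68.5 and 80.02 CPM in AL_22h (-3.64 ± 0.75). Car3, a carbonic anhydrase gene strongly expressed in liver and fat, had 164, 129 and 329 CPM in F_22h and 1257, 2626 and 1356 CPM in AL_22h (-3.07 ± 0.47). The smallest p of all tested genes belonged to Cyp2c70 on chromosome 19 (chr19:40153353-40187333, GRCm38), the enzyme that makes muricholic bile acids in mice. It had 23.8, 64.2 and 34.2 CPM in F_22h and 401, 752 and 494 CPM in AL_22h (-3.75 ± 0.38, adjusted p = 4.59e-07). Of the 30 genes with the largest changes, Selenbp2, a selenium-binding protein gene (-3.02 ± 0.80), lost its call without AL_22h 3 or F_22h 1, and the other 29 kept it without any 1 library.

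**Figure D2:**
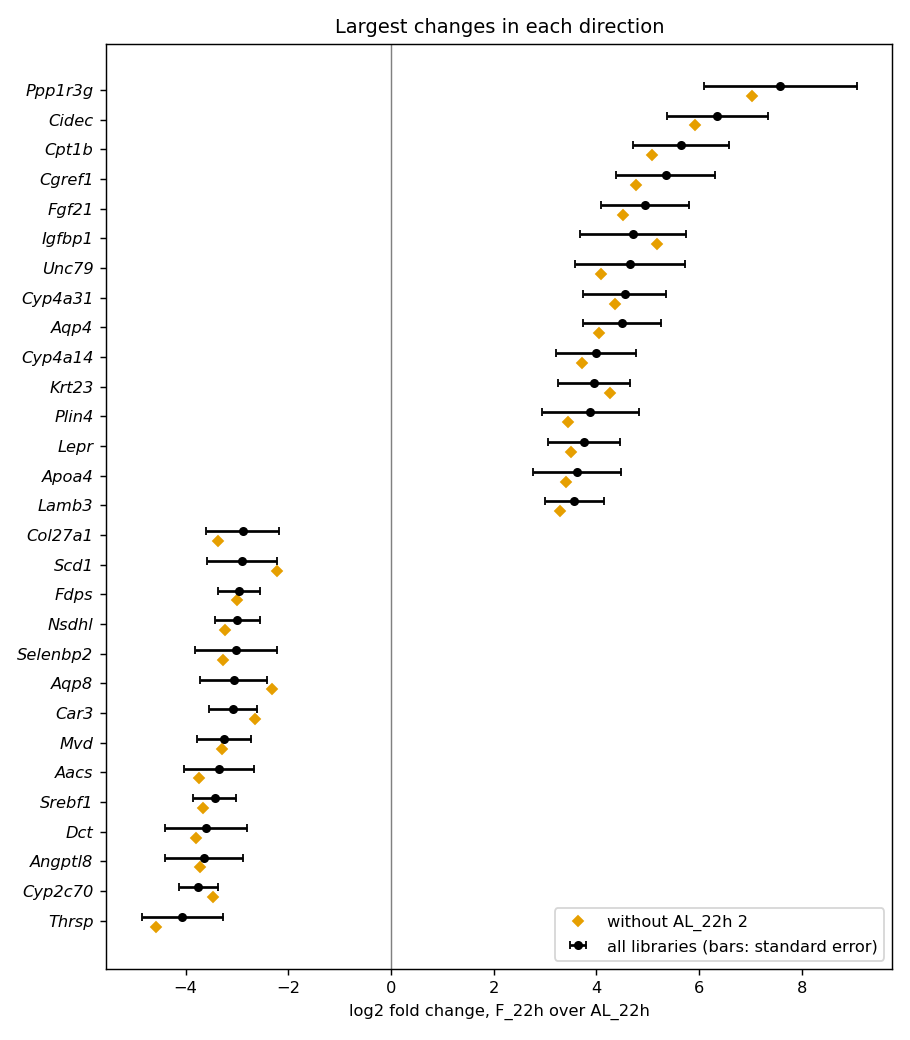
Log2 fold change of F_22h over AL_22h for 15 of the largest rises and 14 of the largest falls, from all libraries (black, bars show the standard error) and without AL_22h replicate 2 (orange diamonds). The changes run from 7.58 for Ppp1r3g to -4.06 for Thrsp, and each gene keeps its direction without that library.

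Most PPARA targets were higher. Of 40 tested, 31 were higher and none lower, with a median change of 1.53, where 6.06% of all tested genes were higher. Cyp4a14, a hydroxylase that starts the omega-oxidation of fatty acids, had 9528, 6906 and 5948 CPM in F_22h and 637, 283 and 488 CPM in AL_22h (3.99 ± 0.77, adjusted p = 0.00137). Its neighbour in function Cyp4a10 had 6515, 5296 and 4107 CPM in F_22h and 583, 275 and 607 CPM in AL_22h (3.44 ± 0.71). Even the lowest fasted liver was several times above the highest AL liver in both, although reads may be shared between Cyp4a copies. Ehhadh, the bifunctional enzyme of peroxisomal oxidation, had 3021, 1065 and 1787 CPM in F_22h and 293, 342 and 311 CPM in AL_22h (2.63 ± 0.34, adjusted p = 2.99e-05). Retsat, a retinol saturase, had 2180, 1327 and 1512 CPM in F_22h against 277, 206 and 263 CPM in AL_22h (2.75 ± 0.57). Ppara itself rose by 1.3202 ± 0.34, a call lost without AL_22h 1 or F_22h 1. Among the 9 members that did not pass were Vnn1, a pantetheinase gene (2.19 ± 0.87, adjusted p = 0.0968), which had 329, 103 and 141 CPM in F_22h and 55.4, 0.887 and 69.6 CPM in AL_22h, and Fabp1, the main fatty acid-binding protein of liver (-0.65 ± 0.58). The count of PPARA targets was 25 without AL_22h 2 and 20 without F_22h 1.

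**Figure D3:**
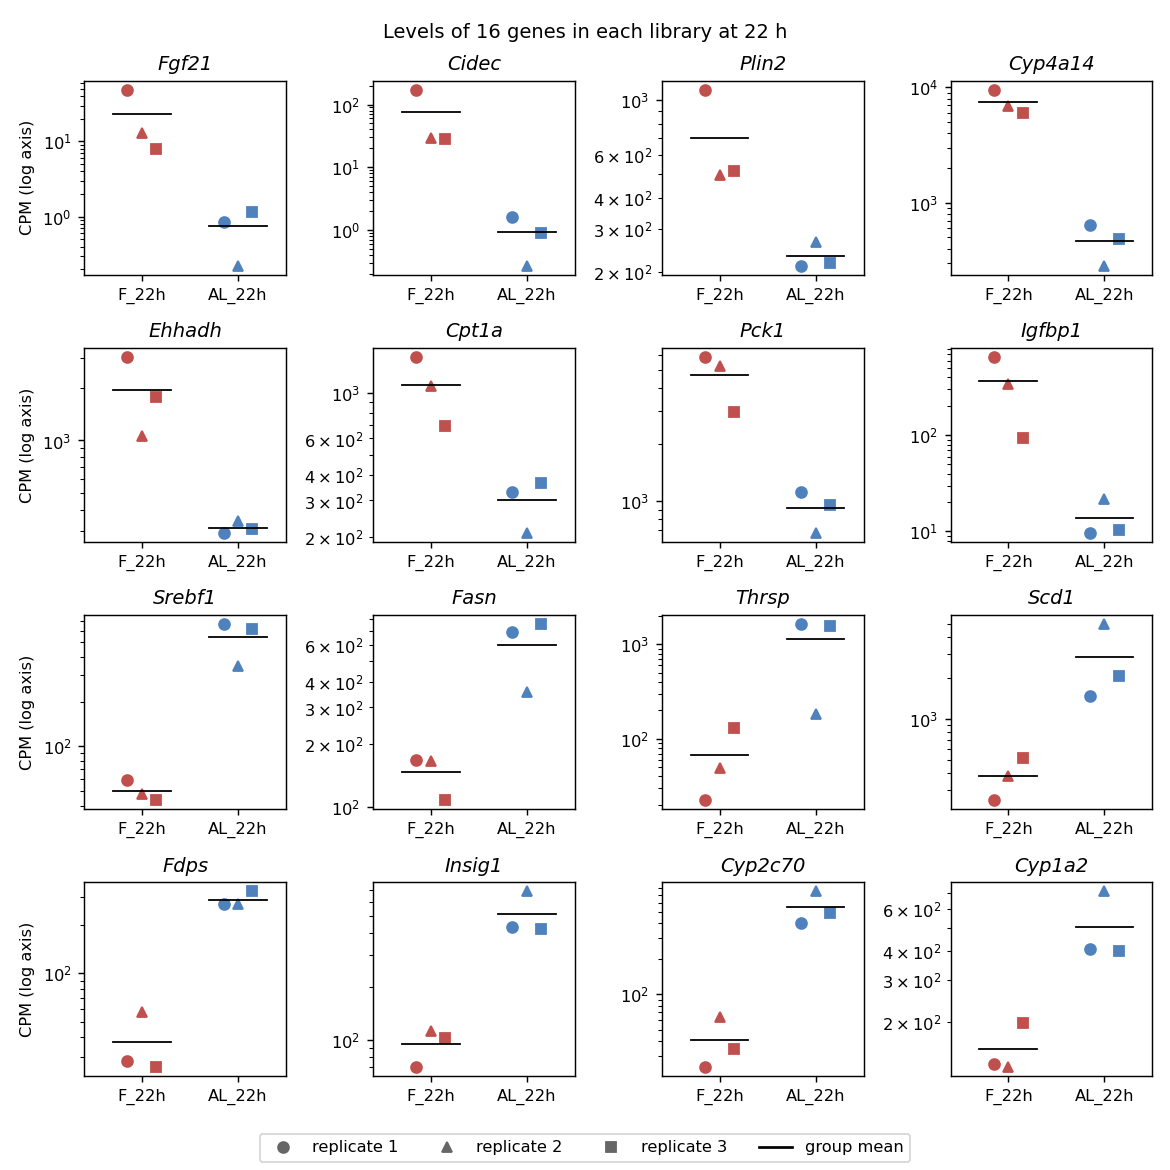
Levels of 16 genes in CPM (log axis) in each library of F_22h and AL_22h, with 1 symbol per replicate number and a line at the group mean. In each of the 16 genes, the 3 fasted libraries lie to one side of the 3 AL libraries.

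Of 26 tested genes of mitochondrial fatty acid oxidation and the carnitine shuttle, 17 were higher and none lower (median 0.83). Over all tested genes, 6.06% were higher. Cpt1a, the liver form of the enzyme that controls fatty acid entry, had 1491, 1082 and 686 CPM in F_22h and 331, 209 and 363 CPM in AL_22h (1.85 ± 0.30, adjusted p = 0.000322). Slc22a5, the carnitine importer, rose by 2.41 ± 0.39, the medium-chain dehydrogenase gene Acadm by 1.37 ± 0.25 and the electron-transfer enzyme gene Etfdh by 1.36 ± 0.25. The count of this list was 10 without AL_22h 2 and 5 without F_22h 1. In peroxisomes, 7 of 26 genes were higher and none lower, a count of 3 without F_22h 1. They included Pex11a, which divides peroxisomes (1.90 ± 0.42), and Abcd3, which imports fatty acyl-CoA (1.07 ± 0.23). Among 18 Cyp4a hydroxylases and acyl-CoA thioesterases, 11 were higher and 2 lower (8 and 1 without AL_22h 2 or F_22h 1, and 1 lower too without AL_22h 1, AL_22h 3 or F_22h 2). Acot2, a mitochondrial thioesterase gene, had 147, 35.7 and 44.4 CPM in F_22h and 9.995, 6.12 and 8.97 CPM in AL_22h (3.18 ± 0.52). Acot5 had no counts in AL_22h and 43 in F_22h, which makes it at least 15.8-fold higher, taking 3 counts over the group as the floor. Cyp4f14, which hydroxylates vitamin E and leukotriene side chains, went the other way (-1.86 ± 0.36). It had 37.9, 124 and 62.1 CPM in F_22h and 235, 335 and 245 CPM in AL_22h.

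Of 27 tested droplet and lipolysis genes, 9 were higher and 1 lower (8 and 0 without AL_22h 2), with a median of 0.35, or 0.04 without F_22h 1. The 1 lower call was lost too without AL_22h 3, F_22h 1 or F_22h 2. The droplet coat gene Plin2 had 1100, 495 and 515 CPM in F_22h and 212, 265 and 218 CPM in AL_22h (1.60 ± 0.26, adjusted p = 0.000322). Plin4, another coat gene, had 51.3, 28.7 and 108 CPM in F_22h and 6.06, 1.198 and 5.44 CPM in AL_22h (3.89 ± 0.94), and here F_22h 3 was the highest. Pnpla2, which encodes the lipase ATGL, had 247, 183 and 134 CPM in F_22h and 71.4, 37.7 and 56.1 CPM in AL_22h (1.77 ± 0.42). The groups did not overlap in any of these 3 genes. Fitm2, which helps droplets bud, rose by 1.55 ± 0.29, and Plin5, which links droplets to mitochondria, by 1.94 ± 0.54, the call of Plin5 being lost without AL_22h 2, AL_22h 3 or F_22h 1. Pnpla3, a feeding-induced droplet protein gene, had 0.253, 0.740 and 0.765 CPM in F_22h and 4.19, 2.80 and 6.87 CPM in AL_22h, a change of -2.95 ± 1.26 that did not pass (adjusted p = 0.122).

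Fatty acid importer genes were among the higher ones. Cd36, a fatty acid translocase, had 340, 200 and 238 CPM in F_22h and 39.6, 41.7 and 46.7 CPM in AL_22h (2.60 ± 0.43). Slc27a1, a fatty acid transport protein gene, had 89.2, 38.2 and 49.9 CPM in F_22h and 10.2, 9.76 and 8.12 CPM in AL_22h (2.66 ± 0.33, adjusted p = 1.90e-05). Both had narrow AL values that the fasted livers cleared without overlap. Over the 20 tested genes of uptake and activation, 5 were higher and 3 lower, and the higher ones numbered 3 without AL_22h 1 or AL_22h 2 and 2 without F_22h 1. The lower ones numbered 2 when AL_22h 1 or any fasted library was left out. One of the lower ones was Acss2, which makes acetyl-CoA from acetate (-1.74 ± 0.44). Of 20 triglyceride synthesis genes, 5 were higher, led in stability by the phosphatidate phosphatase gene Lpin2 with 631, 403 and 416 CPM in F_22h and 125, 94.7 and 151 CPM in AL_22h (1.97 ± 0.42). Leaving out AL_22h 1 or F_22h 1 brought that count to 1, leaving out AL_22h 2 to 2, and leaving out AL_22h 3 or F_22h 3 to 3. Dgat2, which forms triglyceride, was at -0.39 ± 0.24 and not called. For lipoprotein export, Apob, the backbone of VLDL, had 5261, 4709 and 2904 CPM in F_22h and 1380, 2031 and 1797 CPM in AL_22h (1.31 ± 0.28). Mttp, which loads lipid onto it, rose by 1.23 ± 0.28, a call lost without F_22h 1. Apoa4, an apolipoprotein of the same export route, had 5064, 4046 and 442 CPM in F_22h and 303, 176 and 295 CPM in AL_22h (3.62 ± 0.87), so F_22h 3 lay near the AL livers. These were the 3 higher genes of 20 tested for apolipoproteins and VLDL assembly, Angptl8 was the 1 lower, and 16 were not called; 2 were higher without F_22h 1.

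Ketone body genes did not move as one. Of 10 tested, 2 were higher and 2 lower. The lower calls of both genes held in each of the 6 fits, while the higher ones numbered 1 without AL_22h 1 or AL_22h 3 and 0 without AL_22h 2 or F_22h 1. The ketone-body-using synthetase gene Aacs, which returns acetoacetate to lipid synthesis, had 18.9, 13.4 and 17.5 CPM in F_22h and 231, 62.4 and 216 CPM in AL_22h (-3.35 ± 0.68). Bdh2, a dehydrogenase gene, had 2.48, 7.06 and 5.80 CPM in F_22h and 13.04, 15.4 and 11.0 CPM in AL_22h (-1.36 ± 0.30). Slc16a7, a carrier of pyruvate and ketone bodies, was among the higher genes (0.98 ± 0.29), a call lost without AL_22h 1, AL_22h 2, AL_22h 3 or F_22h 1.

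Of 24 tested gluconeogenesis genes, 10 were called higher and none lower (median 0.78), where 6.06% of all tested genes were higher. G6pc, the last enzyme of glucose release, had 745, 613 and 435 CPM in F_22h and 126, 178 and 129 CPM in AL_22h (2.05 ± 0.47, adjusted p = 0.00514), and was the 1 member whose call held in each of the 6 fits. Pck1, the gatekeeper enzyme, had 5833, 5222 and 2960 CPM in F_22h and 1120, 677 and 953 CPM in AL_22h (2.35 ± 0.64, adjusted p = 0.0151). Its groups did not overlap, and its call was lost without AL_22h 2, AL_22h 3 or F_22h 1. Ppargc1a, a coactivator of fasting genes, rose by 1.78 ± 0.42, lost without F_22h 2, and pyruvate carboxylase, Pcx, by 1.16 ± 0.29, lost without F_22h 1. Leaving out AL_22h 1 or AL_22h 2 brought the 10 calls to 5, AL_22h 3 or F_22h 2 to 6, and F_22h 1 to 3.

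A few glycolysis genes were lower, where 5.4% of all tested genes were lower and 6.06% higher. Of 28 tested, 1 was higher and 4 lower (0 and 3 without AL_22h 2, 2 lower without F_22h 1), among them Pklr, the liver pyruvate kinase gene (-1.74 ± 0.42, lost without F_22h 1), and Aldoc, an aldolase gene with 3.95, 2.96 and 5.07 CPM in F_22h and 15.3, 8.34 and 17.7 CPM in AL_22h (-1.78 ± 0.37). The 1 higher gene was Pfkfb2, which sets the level of a glycolysis activator (1.19 ± 0.31), a call lost without AL_22h 2. The remaining 23 were not called, and Ldhd, the D-lactate dehydrogenase gene, was another lower one (-0.51 ± 0.16). Pdk4, which turns off pyruvate dehydrogenase, had 176, 17.7 and 28.7 CPM in F_22h and 3.13, 25.9 and 3.26 CPM in AL_22h. AL_22h 2 overlapped with the fasted livers, and the change was 2.79 ± 0.85 with it and 4.54 without it. Its call was lost without AL_22h 1, AL_22h 3 or F_22h 1. Among glycogen genes, Ppp1r3g rose while 2 other targeting subunits fell. With a further gene the list of 21 had 3 lower calls, but 1 without any 1 of the AL libraries and 0 without F_22h 1 or F_22h 2. Ppp1r3b had 150, 243 and 264 CPM in F_22h and 519, 393 and 604 CPM in AL_22h (-1.204 ± 0.38), a call lost without AL_22h 1, AL_22h 3, F_22h 1 or F_22h 2. Ppp1r3c had 7.14, 10.1 and 22.5 CPM in F_22h and 24.4, 160 and 25.3 CPM in AL_22h. Its change of -2.40 ± 0.60 was -0.90 without AL_22h 2, where it was no longer called, as it was not without F_22h 1 or F_22h 2. Gys2, liver glycogen synthase, was not called (0.87 ± 0.34, adjusted p = 0.0945).

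De novo lipogenesis is the making of fat from carbohydrate. Of 25 tested genes 11 were lower and none higher, with a median of -0.70, where 5.4% of all genes were lower. Leaving out AL_22h 2 gave 11 lower and 1 higher, and leaving out F_22h 1 gave 8 lower. Srebf1, which encodes SREBP1, had 59.8, 47.5 and 43.5 CPM in F_22h and 663, 349 and 616 CPM in AL_22h (-3.43 ± 0.42, adjusted p = 1.64e-05). Fasn, fatty acid synthase, had 168, 166 and 107 CPM in F_22h and 696, 357 and 756 CPM in AL_22h (-2.04 ± 0.48). Scd1, the desaturase, had 252, 381 and 514 CPM in F_22h and 1480, 4988 and 2079 CPM in AL_22h (-2.90 ± 0.68). AL_22h 2 was the lowest AL liver for Srebf1 and Fasn and the highest for Scd1, and the groups stayed apart in each. Mid1ip1, which assembles acetyl-CoA carboxylase into polymers, changed by -2.62 ± 0.43, and the citrate exporter gene Slc25a1 by -1.06 ± 0.23. Acly, which splits citrate, changed by -1.41 ± 0.34, lost without F_22h 1, and Mlxipl, which encodes ChREBP, by -1.73 ± 0.51, lost without AL_22h 1, AL_22h 3, F_22h 1 or F_22h 2. Acaca, the acetyl-CoA carboxylase gene of the cytosol, overlapped between groups and was not called (-0.39 ± 0.26).

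Cholesterol synthesis had the largest share of lower genes of the lists examined. Of 27 tested members, 20 were lower and none higher, with a median of -1.49, where 5.4% of all tested genes were lower. Without AL_22h 2 the count was 21, and without F_22h 2 it was 19. Leaving out AL_22h 1 gave 17, AL_22h 3 or F_22h 3 gave 16, and F_22h 1 gave 14. Fdps, which makes farnesyl diphosphate, had 28.5, 57.2 and 26.0 CPM in F_22h and 271, 270 and 325 CPM in AL_22h (-2.95 ± 0.41, adjusted p = 6.09e-05). Mvd, the decarboxylase that precedes it, had 1.72, 7.75 and 2.90 CPM in F_22h and 38.6, 36.4 and 40.9 CPM in AL_22h (-3.24 ± 0.52). Nsdhl, a demethylation enzyme further down, had 8.40, 12.2 and 8.09 CPM in F_22h and 77.5, 49.9 and 102 CPM in AL_22h (-2.996 ± 0.44). F_22h 2 was the highest fasted liver in these, far below the lowest AL liver. Idi1, an isomerase gene, changed by -2.41 ± 0.41. Hmgcs1, which makes HMG-CoA for this route, had 178, 171 and 93.0 CPM in F_22h and 249, 439 and 379 CPM in AL_22h (-1.27 ± 0.46, adjusted p = 0.0691). It was not called, and neither was the regulator gene Srebf2 (-0.25 ± 0.31).

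The INSIG proteins hold SREBP in the endoplasmic reticulum, and their genes moved in opposite directions. Insig1, a target of SREBP, had 69.8, 113 and 102 CPM in F_22h and 434, 691 and 424 CPM in AL_22h (-2.44 ± 0.39, adjusted p = 0.000296). Insig2 had 515, 212 and 401 CPM in F_22h and 83.9, 174 and 103 CPM in AL_22h (1.64 ± 0.35, adjusted p = 0.00300). Neither pair of groups overlapped, and both calls held in each of the 6 fits. Of 17 genes of sterol export and LXR targets, 4 were higher and 1 lower (3 and 1 without AL_22h 2). Npc1, which releases cholesterol from lysosomes, had 244, 212 and 124 CPM in F_22h and 59.7, 52.9 and 65.5 CPM in AL_22h (1.70 ± 0.32), while its partner Npc2 had 43.1, 45.6 and 65.9 CPM in F_22h and 85.2, 87.7 and 86.5 CPM in AL_22h (-0.75 ± 0.20, a call lost without AL_22h 1, AL_22h 3, F_22h 1 or F_22h 2).

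The promoters of 3 genes described above are shown because they stand for a lower sterol gene and for a higher droplet and peroxisomal gene, and because each held a searched motif. They come from RefSeq (GRCm38.p6), run 5′ to 3′ on the strand of the gene from 250 bases before to 50 after the gene's start, and have the motif in capitals. Insig1 (chr5:28071162-28071461, plus strand) and Plin2 (chr4:86670010-86670309, minus strand) hold the E-box CACGTG, the binding letters of clock and other helix-loop-helix factors, beginning at -101 and -4. Ehhadh (chr16:21787785-21788084, minus strand) holds, on the other strand, the sterol regulatory letters TCACNCCAC, beginning at -171.
Insig1: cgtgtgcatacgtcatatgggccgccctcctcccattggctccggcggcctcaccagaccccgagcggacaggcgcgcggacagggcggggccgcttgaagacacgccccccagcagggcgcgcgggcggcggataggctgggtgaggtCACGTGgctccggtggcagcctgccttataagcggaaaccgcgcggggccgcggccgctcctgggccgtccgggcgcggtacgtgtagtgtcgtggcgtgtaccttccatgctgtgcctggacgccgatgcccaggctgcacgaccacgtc
Plin2: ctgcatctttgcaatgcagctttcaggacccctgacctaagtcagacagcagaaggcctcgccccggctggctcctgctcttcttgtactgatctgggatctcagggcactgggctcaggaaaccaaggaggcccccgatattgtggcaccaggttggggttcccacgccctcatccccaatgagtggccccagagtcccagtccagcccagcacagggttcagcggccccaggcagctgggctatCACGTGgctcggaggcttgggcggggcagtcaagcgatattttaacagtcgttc
Ehhadh: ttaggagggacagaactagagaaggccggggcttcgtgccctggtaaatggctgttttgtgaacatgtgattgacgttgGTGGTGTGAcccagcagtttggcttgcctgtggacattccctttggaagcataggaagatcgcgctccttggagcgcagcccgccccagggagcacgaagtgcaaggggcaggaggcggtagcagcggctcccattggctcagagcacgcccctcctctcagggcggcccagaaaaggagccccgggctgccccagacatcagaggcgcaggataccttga

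Both strands of 32817 promoter windows were searched for these and for the PPAR repeat (DR1, the letters AGGNCA on either side of 1 free base) and the cyclic AMP element TGACGTCA. The E-box occurred in 7.15% of windows, TCACNCCAC in 1.24%, the PPAR repeat in 0.381% and TGACGTCA in 1.79%. Of 31 called anchor genes with a window, 5 held an E-box, 1 TCACNCCAC, and none either other motif. Among 20 cholesterol list members with a window, 1 held TCACNCCAC (Hmgcs1), and among 32 PPARA targets with a window, 1 held the PPAR repeat (Fabp1). A match is a run of letters and not a measured site, and its absence says only that these letters are not in this window.

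Bile acid genes changed member by member. Of 26 tested, 7 were higher and 3 lower (5 and 2 without AL_22h 2). Besides Cyp2c70, whose fall was the clearest, the export pumps Abcb4 (1.57 ± 0.33) and Abcc2 (1.02 ± 0.23) rose in each of the 6 fits. Abcb4, which moves phosphatidylcholine into bile, had 629, 429 and 387 CPM in F_22h and 167, 148 and 173 CPM in AL_22h. Cyp8b1, which makes cholic acid, had 672, 399 and 276 CPM in F_22h and 33.0, 211 and 91.2 CPM in AL_22h (2.01 ± 0.60), a call lost without AL_22h 1, AL_22h 3 or F_22h 1. Cyp7a1, the rate-limiting enzyme of bile acid synthesis, had 145, 348 and 242 CPM in F_22h and 416, 178 and 532 CPM in AL_22h and was not called (-0.61 ± 0.68). The higher genes numbered 3 without AL_22h 1, 4 without AL_22h 3 and 3 without F_22h 1, and the lower genes 1 without F_22h 1 or F_22h 2.

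Hormone genes and receptors followed. Igfbp1, which binds insulin-like growth factors and is held down by insulin, had 653, 343 and 93.4 CPM in F_22h and 9.61, 21.7 and 10.4 CPM in AL_22h (4.71 ± 1.03, adjusted p = 0.00372). Lepr had 170, 28.9 and 11.4 CPM in F_22h and 5.59, 3.11 and 6.78 CPM in AL_22h. For both, the fasted livers spread over a wide range that lay above the AL livers. Insr, the insulin receptor gene, had 176, 171 and 110 CPM in F_22h and 50.6, 71.6 and 68.3 CPM in AL_22h (1.26 ± 0.22). Irs2, which carries its signal, had 55.5, 61.8 and 23.0 CPM in F_22h and 6.61, 18.3 and 5.71 CPM in AL_22h (2.20 ± 0.58), a call lost without AL_22h 1, AL_22h 3, F_22h 1 or F_22h 2. In the growth hormone axis, the serum carrier subunit gene Igfals had 72.5, 74.9 and 60.6 CPM in F_22h and 165, 174 and 170 CPM in AL_22h (-1.29 ± 0.30), and Igfbp3 rose by 1.56 ± 0.33. Igf1 itself had 486, 472 and 614 CPM in F_22h and 651, 585 and 812 CPM in AL_22h and was not called (-0.38 ± 0.27). Ghr, the growth hormone receptor gene, changed by -0.75 ± 0.24, a call lost in 5 of the 6 fits, the exception being that without AL_22h 1.

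Receptors for adrenaline and vasopressin also changed. Avpr1a, the vasopressin receptor gene of hepatocytes, had 10.02, 11.0 and 13.1 CPM in F_22h and 26.9, 81.1 and 28.5 CPM in AL_22h. Its change of -1.998 ± 0.31 was -1.28 without AL_22h 2, more than 1.5 times smaller and still called. Adra1b, the main adrenaline receptor gene of mouse liver, had 16.1, 30.9 and 25.0 CPM in F_22h and 72.7, 76.6 and 58.1 CPM in AL_22h (-1.53 ± 0.33). Neither overlapped between groups. Adra2a, another adrenaline receptor gene, had 84 counts in F_22h and none in AL_22h, at least 30.9-fold higher with 3 counts over the group as the floor. It lay at 3.04, 1.31 and 0.0402 CPM in F_22h, so F_22h 3 was close to 0, and its call was lost without AL_22h 1, AL_22h 3 or F_22h 1.

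Genes of drug and hormone clearance were lower in part, where 5.4% of all tested genes were lower and 6.06% higher. Of 47 phase II conjugation enzymes, 10 were lower and none higher (median -0.30), with 9 lower without AL_22h 2 and 6 without F_22h 1. The median was -0.51 without F_22h 3. Gsta3, a glutathione transferase gene, had 591, 569 and 746 CPM in F_22h and 1718, 2096 and 1720 CPM in AL_22h (-1.54 ± 0.23). The spread of Gsta3 within each group was small beside the gap between them. Of 39 cytochrome P450 genes of drug metabolism, 6 were lower and 1 higher (5 and 0 without AL_22h 2, 4 and 0 without F_22h 1). Cyp1a2, which clears caffeine and oestrogens, had 133, 130 and 199 CPM in F_22h and 406, 710 and 399 CPM in AL_22h (-1.71 ± 0.32). Cyp2c40 changed by -1.51 ± 0.33 and Cyp2c44 by -1.53 ± 0.34, both arachidonate-metabolising enzymes, though reads of the close Cyp2c copies may be shared. Cyp2a22 was the higher gene (2.16 ± 0.63), a call lost without AL_22h 1, AL_22h 2, AL_22h 3 or F_22h 1. Cyp2e1, an abundant enzyme of ethanol and acetone metabolism, had 12156, 5479 and 8588 CPM in F_22h and 6503, 5401 and 7208 CPM in AL_22h and was not called (0.46 ± 0.24).

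Vitamin A genes split as well. Of 23 retinoid genes, 2 were higher and 4 lower, and these 6 calls each held in the 6 fits. Cyp26a1, which destroys retinoic acid and is induced by it, had 1.27, 5.35 and 3.66 CPM in F_22h and 19.2, 26.0 and 14.6 CPM in AL_22h (-2.54 ± 0.52). The alcohol dehydrogenase gene Adh4 had 20.6, 16.6 and 25.3 CPM in F_22h and 56.7, 83.3 and 58.5 CPM in AL_22h (-1.66 ± 0.30). Retsat and the retinol dehydrogenase gene Rdh16 (1.27 ± 0.26) were the higher ones, and Rdh11, also counted with the cholesterol genes, was lower (-2.05 ± 0.36).

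Methionine metabolism gave large single changes. Mat1a, which makes S-adenosylmethionine, had 10326, 11244 and 9358 CPM in F_22h and 3464, 4272 and 3660 CPM in AL_22h (1.44 ± 0.32). Gamt, which uses it to make creatine, had 31.1, 59.5 and 37.0 CPM in F_22h and 246, 155 and 258 CPM in AL_22h (-2.37 ± 0.42), and Pemt, which uses it to make phosphatidylcholine, changed by -0.73 ± 0.17. These 3 calls held in each of the 6 fits, and the other 21 of 24 genes of the list were not called. Over 47 genes of amino acid breakdown and the urea cycle, 5 were higher and 3 lower, close to the share over all genes. Leaving out AL_22h 1 gave 1 and 3, AL_22h 2 gave 3 and 2, AL_22h 3 gave 2 and 3, and F_22h 1 gave 3 and 1. Haao, of the tryptophan route, had 130, 183 and 195 CPM in F_22h and 388, 524 and 400 CPM in AL_22h (-1.37 ± 0.25). Cps1, which opens the urea cycle, had 5697, 6871 and 3435 CPM in F_22h and 2154, 3306 and 2154 CPM in AL_22h and did not pass (1.07 ± 0.38, adjusted p = 0.0651).

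Interferon-responsive genes were lower in part. Of 33 tested, 8 were lower and none higher, with a median of -1.02, and for 23 of them the fasted libraries lay below the AL libraries without overlap, where this held for 18.4% of all tested genes. Bst2, an antiviral membrane protein gene, had 44.7, 58.4 and 55.7 CPM in F_22h and 151, 114 and 139 CPM in AL_22h (-1.35 ± 0.32), and the immunoproteasome subunit gene Psmb8 had 14.0, 16.8 and 13.8 CPM in F_22h and 47.4, 26.6 and 47.4 CPM in AL_22h (-1.45 ± 0.33). The 8 calls came to 7 without AL_22h 2, and leaving out AL_22h 1, AL_22h 3 or F_22h 2 brought them to 4, F_22h 3 to 5 and F_22h 1 to 2. Markers of T, NK and B cells summed to 4.10 to 5.47 CPM in F_22h and 10.7 to 12.5 CPM in AL_22h, none of the 11 tested was called, and 7 of the 11 lay lower without overlap. Their part in the interferon result was not tested.

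Ribosomal protein genes had a median of -0.56 over 77 tested, and 7 of them were called lower, where 5.4% of all genes were. With the length trend removed the median was -0.39 and 6 were called, and leaving out AL_22h 2 gave 6, AL_22h 1 gave 2, AL_22h 3 gave 4, F_22h 1 or F_22h 2 gave 0 and F_22h 3 gave 13. The median was -0.35 without F_22h 2 and -0.92 without F_22h 3. Rpl39, a short member, had 11.0, 12.2 and 18.6 CPM in F_22h and 40.1, 45.3 and 36.4 CPM in AL_22h (-1.54 ± 0.42), a call lost without F_22h 1 or F_22h 2. Of 30 genes of the unfolded protein response, 5 were lower and none kept its call in each of the 6 fits; the count was 2 without AL_22h 1 or AL_22h 2, 1 without AL_22h 3 or F_22h 2, 0 without F_22h 1 and 3 without F_22h 3. Sdf2l1, an endoplasmic reticulum chaperone partner gene, had its highest value in AL_22h 2, with 3.85, 4.50 and 6.56 CPM in F_22h and 12.96, 52.0 and 15.9 CPM in AL_22h (-2.43 ± 0.68, and -1.53 without that library, where the call was lost, as it was without F_22h 1 or F_22h 2).

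Glucocorticoid-responsive and growth-arrest genes were called mostly higher, and many of these calls were unstable. Of 23 growth-arrest and p53 target genes, 6 were higher and 1 lower, where 6.06% of all tested genes were higher. These numbered 1 and 1 without AL_22h 2, and 0 and 1 without F_22h 1. Of 22 glucocorticoid-responsive genes 6 were higher (median 1.04), and leaving out AL_22h 1 brought that to 3, and AL_22h 2, AL_22h 3 or F_22h 1 to 2. Klf9, a factor induced by glucocorticoids, had 111, 131 and 102 CPM in F_22h and 36.6, 42.9 and 39.2 CPM in AL_22h (1.54 ± 0.36) and kept its call in each fit. Cdkn1a, which encodes the cell cycle inhibitor p21, had 61.7, 21.2 and 33.0 CPM in F_22h and 6.69, 3.33 and 5.71 CPM in AL_22h (2.88 ± 0.89), without overlap, and its call was lost without AL_22h 1, AL_22h 2, AL_22h 3 or F_22h 1. Gadd45a, a growth-arrest gene, went the other way, with 2.23, 1.03 and 1.25 CPM in F_22h and 7.62, 7.76 and 8.56 CPM in AL_22h (-2.41 ± 0.56). Mtor, the kinase that senses nutrients, had 72.4, 62.8 and 38.6 CPM in F_22h and 26.6, 22.8 and 29.6 CPM in AL_22h (1.14 ± 0.23).

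In 5 further lists the share called was near that of all tested genes. Of 34 proteasome subunits, 1 was higher and 1 lower; of 47 respiratory chain subunits, 2 were lower; of 32 acute phase genes, 1 was higher and 2 lower; of 40 coagulation and complement genes, 2 were higher and 3 lower; and of 30 autophagy and lysosome genes, 3 were higher. Single libraries moved these small counts: without F_22h 1 they were 0 and 0 for the proteasome, 0 lower for the respiratory chain, 0 and 1 for acute phase, 1 and 1 for coagulation and complement, and 1 higher for autophagy. Over all 6 fits they stayed between 0 and 5 in each direction. Serpina10, an anticoagulant serpin gene, stood out by its tight values, 94.9, 103 and 81.3 CPM in F_22h and 173, 184 and 199 CPM in AL_22h (-0.99 ± 0.19).

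**Figure D4:**
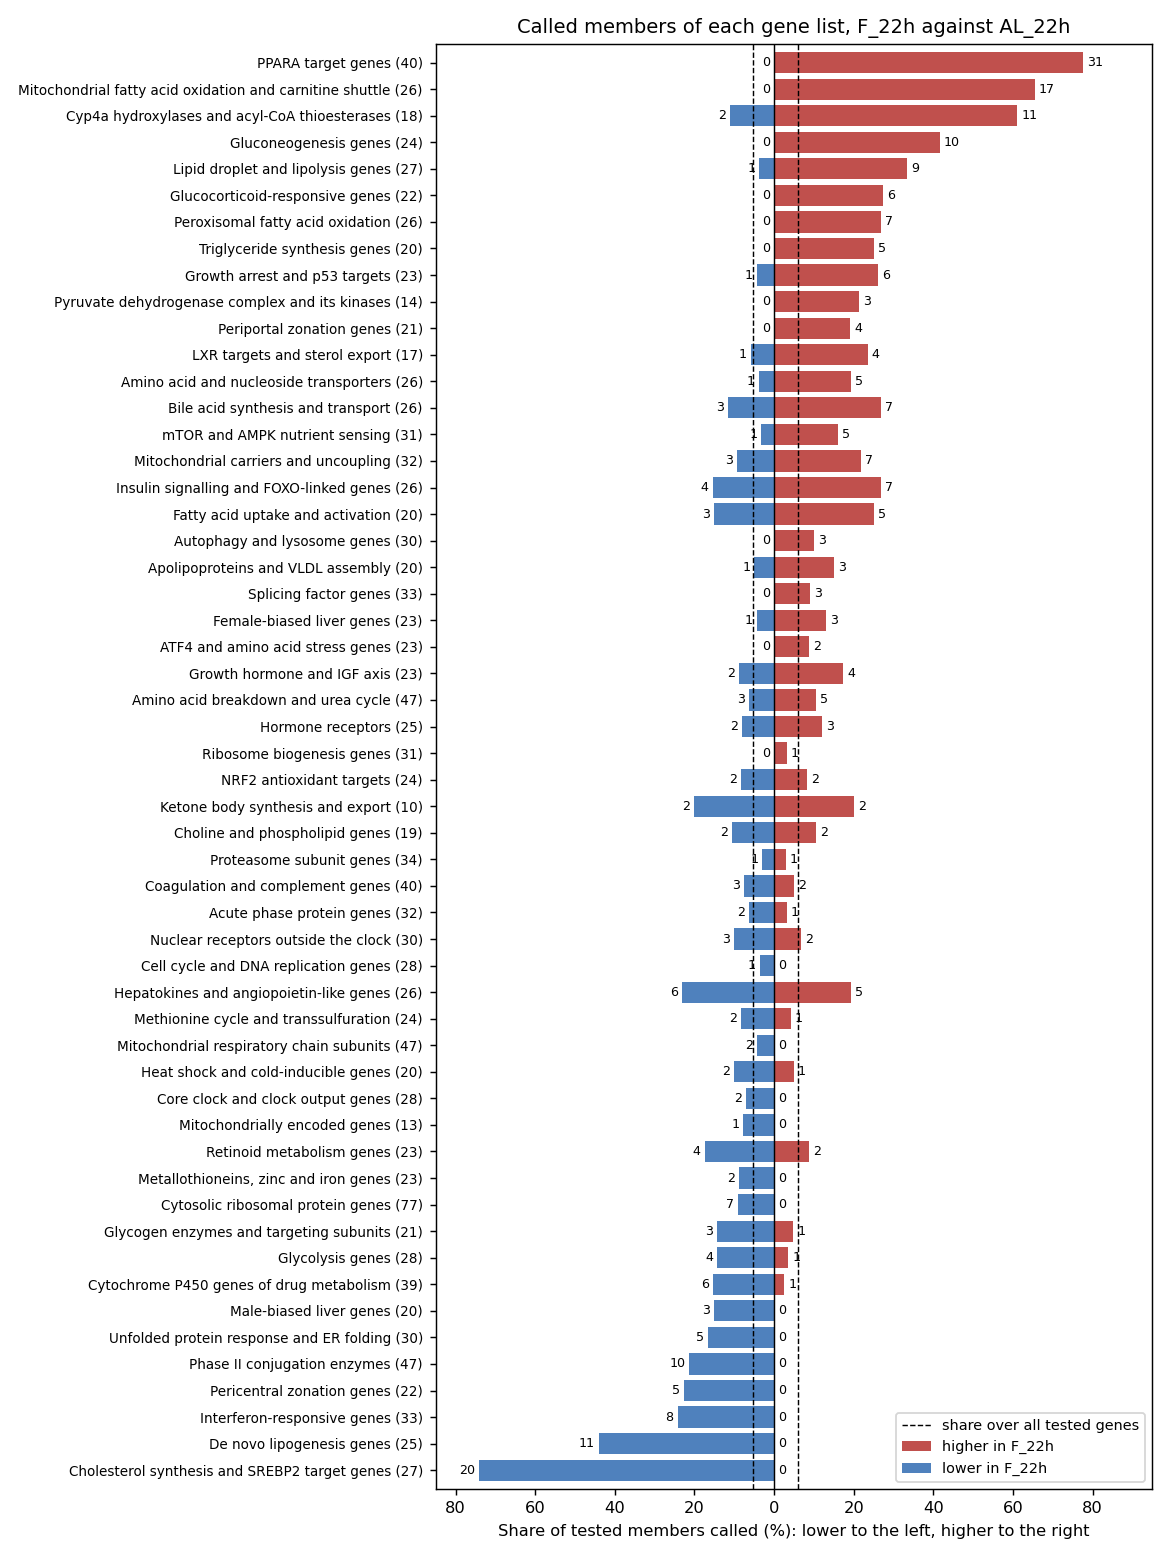
Share of tested members of each gene list called higher (right, red) or lower (left, blue) in F_22h against AL_22h, with the number called beside each bar and the number tested in brackets. Dashed lines mark the share over all tested genes, 6.06% higher and 5.4% lower; PPARA targets (31 of 40 higher) and cholesterol synthesis genes (20 of 27 lower) lie farthest from them.

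Cell type markers gave the following levels. The 10 hepatocyte markers summed to between 75980 and 127800 CPM in F_22h and between 86520 and 126500 CPM in AL_22h, high in each library. Of these 10, 2 were called lower, and 1 of these calls held in each of the 6 fits. Of 14 Kupffer cell and macrophage markers, 1 was called, the haemoglobin scavenger receptor gene Cd163, with 30.0, 42.4 and 46.5 CPM in F_22h and 17.4, 10.1 and 15.3 CPM in AL_22h (1.47 ± 0.32). Cd163 was 1 of 3 members of the 14 with a change above 0, and the median of the list was -0.37. The 14 summed to 351 to 610 CPM in F_22h and 576 to 771 CPM in AL_22h. Of 14 sinusoidal endothelial markers, 1 was called, Lyve1, a hyaluronan receptor gene (2.36 ± 0.60, lost without F_22h 2), and the sums were 285 to 441 CPM in F_22h and 279 to 373 CPM in AL_22h. Among 14 stellate cell and collagen markers, 1 was called higher, a call that did not hold in each of the 6 fits. Erythroid markers summed to 2800 to 3910 CPM in F_22h and to 1053, 3469 and 753 CPM in AL_22h 1, 2 and 3, with none of 8 called. Muscle and pancreatic markers came to at most 13.1 CPM in any of the 6 libraries. The adipocyte markers Adipoq, Lep, Plin1, Cfd and Retn were under 1 CPM in each of the 6. The whole list of 8 summed to 151 to 345 CPM in F_22h and 1274 to 2645 CPM in AL_22h, a sum made up mostly of Car3, its 1 called member (lower). The part of other cell types in the gene results was not tested.

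The fasted-to-AL change at 22 h was set beside the same change at 14 h and at 6 h, which use other libraries, and beside the change of calorie-restricted mice that missed a meal (CR_missed) over those that were fed (CR_fed). All 13 groups of the series were in 1 model, and each difference of changes was tested. The calorie-restricted mice, also female, wild-type and C57BL/6, were sampled at ZT18 and had labelled ages of 42 to 44 months in CR_missed and 39 to 41 months in CR_fed. Labelled ages were 26 to 28 months in F_14h, 20 to 22 months in AL_14h, 17 to 19 months in F_6h and 11 and 12 months in AL_6h, which had 2 libraries. Against 14 h, 1 of 13786 genes differed (0.00725%), and 811 had an unadjusted p under 0.05. Against 6 h, 3 genes differed (0.0218%), 1 with a higher change at 22 h (0.00725%) and 2 with a lower one (0.0145%), and 1019 had an unadjusted p under 0.05. Against the missed meal, 122 genes differed (0.885%), 64 with a higher and 58 with a lower change at 22 h.

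Plin2 changed by 1.96 ± 0.31 at 6 h, 1.98 ± 0.27 at 14 h and 1.60 ± 0.26 at 22 h. Srebf1 changed by -1.73 ± 0.42 at 6 h, -2.97 ± 0.41 at 14 h and -3.43 ± 0.42 at 22 h, and Igfbp1 by 2.17 ± 1.07, 4.39 ± 1.02 and 4.71 ± 1.03. None of these 3 genes passed the test of a difference. Cyp2c70 changed by -0.91 ± 0.37 at 6 h, -2.09 ± 0.35 at 14 h and -3.75 ± 0.38 at 22 h, and its difference between 22 h and 6 h was called (-2.84 ± 0.53, adjusted p = 0.0462). That call was lost without AL_6h 1, AL_6h 2, AL_22h 1, AL_22h 3, F_6h 1, F_6h 2 or F_22h 1.

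Plin2 changed by 1.60 ± 0.26 at 22 h and 1.87 ± 0.27 after the missed meal, Fgf21 by 4.95 ± 0.86 and 5.12 ± 0.87, and Srebf1 by -3.43 ± 0.42 and -4.02 ± 0.43. None of these 3 genes had a called difference. Akap9, which encodes a centrosomal anchor of protein kinase A, averaged 46.4 CPM in F_22h and 17.0 CPM in AL_22h, and 11.9 CPM in CR_missed and 16.0 CPM in CR_fed (1.87 ± 0.27, adjusted p = 0.00161). The splicing factor genes Hnrnpr (1.29 ± 0.22), Hnrnpd (1.75 ± 0.31) and Hnrnpa3 (1.31 ± 0.24) had differences of changes above 0. These came mostly from the missed meal, where the genes changed by -1.0334 ± 0.1565, -1.2988 ± 0.2215 and -1.0031 ± 0.1686. Their changes at 22 h were small beside their standard errors, at 0.2581 ± 0.1531, 0.4542 ± 0.217 and 0.3079 ± 0.1671. Means were thus lower in CR_missed than in CR_fed and only slightly higher in F_22h than in AL_22h. Hnrnpd, for example, averaged 48.8 CPM in F_22h and 35.6 CPM in AL_22h, and 17.6 CPM in CR_missed and 43.2 CPM in CR_fed. Of 39 drug-metabolism P450 genes 3 differed, Cyp1a2, Cyp2c38 and Cyp2c54, each with the lower change at 22 h, and of 47 phase II enzymes 5 differed. Of 25 lipogenesis genes 2 differed (Acaca and Scd2) and of 17 genes of sterol export and LXR targets 1 (Abca1), each with the higher change at 22 h. Of 40 PPARA targets, 24 gluconeogenesis genes and 27 cholesterol synthesis genes none was called, and with 0.885% of all tested genes called, 0 in lists of this size is near that share. The count was 16 without CR_fed 2, 18 without CR_missed 3, 20 without F_22h 1, 24 without F_22h 2, 29 without AL_22h 3, 31 without CR_fed 1, 56 without AL_22h 1, 61 without CR_missed 2, 218 without CR_fed 3 and 268 without F_22h 3.

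**Figure D5:**
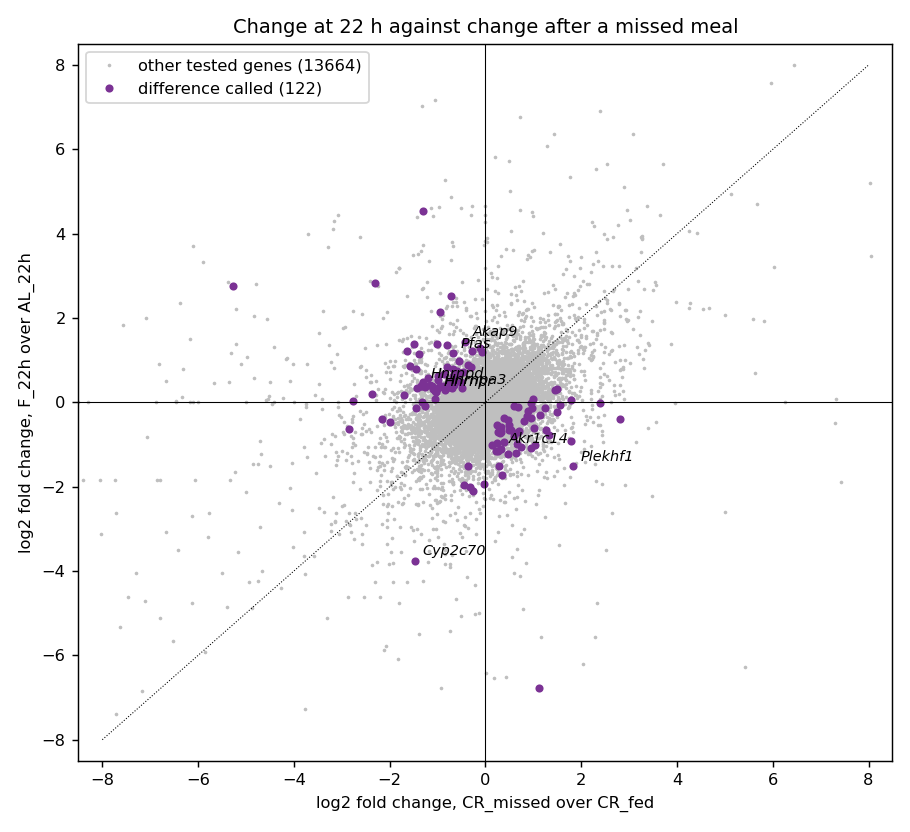
Log2 fold change of F_22h over AL_22h (vertical) against that of CR_missed over CR_fed (horizontal) for 13786 tested genes, with the 122 genes of a called difference in purple and the dotted line at equal change. Purple genes lie off the dotted line, among them Akap9 and Cyp2c70, and 5 genes fall outside the axes.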

How the data were processed

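Liver RNA was prepared from 30 mg of tissue with a column kit, made into polyA-selected libraries without strand information and sequenced in 150 bp pairs, per the labels' protocols. Reads were mapped to mouse protein-coding genes (Ensembl, GRCm38) with Bowtie allowing 2 mismatches, and expected counts and TPM were estimated with RSEM 1.2.3, per the labels' protocols. A second table holds the TPM signal that the authors rescaled with EBSeq against a potential batch effect; no batch is named. Without strand, a gene and its antisense partner cannot be told apart, and reads of close copies may be shared.

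The deposited expected counts were rounded to whole numbers and fitted with edgeR 4.0.16 in R 4.3.3 over all 38 libraries in 13 groups, with filterByExpr, TMM scaling, the quasi-likelihood test and Benjamini-Hochberg adjustment over 13786 genes at 0.05. The standard error is the size of the log2 change over the root of the F statistic. A difference of changes was a contrast in the same fit. DESeq2 1.42.0 and limma 3.58.1 (on log2 of the rescaled TPM plus 1 or 0.1) were alternatives, with each library left out in turn. The scripts were tested on simulated data. Within F_22h and within AL_22h, no 2 libraries held identical values.

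The rule for named genes took the 15 largest rises and the 15 largest falls among calls whose mean in 1 group reached 5 CPM and whose groups did not overlap, without unnamed gene models and Mup genes, then anchor genes and list members, preferably called ones with large changes. For differences of changes it took the 8 smallest p where a group's mean reached 10 CPM. Genes named below the threshold, and list members named for a call that held or failed without 1 library, were chosen after their values were seen. The members and lists were chosen with earlier results of these data known. Promoters were matched by gene symbol for 31 of 39 called anchor genes. A few genes of the rule are not reported here.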

Additional observations from a re-analysis of the deposited data

Results flagged for a closer look

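The results here were singled out because the change of F_22h over AL_22h differed from the same kind of change in other groups by a test of the difference itself, in edgeR's quasi-likelihood test with Benjamini-Hochberg adjustment. Against the change of F_14h over AL_14h, 1 gene differed. Dmrta1, which encodes a DNA-binding protein of the DM family, had a mean of 1.87 CPM in F_22h and 1.53 CPM in AL_22h, and of 0.18 CPM in F_14h and 2.55 CPM in AL_14h, a difference of 4.08 ± 0.62 (adjusted p = 0.00320).

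Against the change of F_6h over AL_6h, 3 genes differed. They were Sybu, the syntabulin gene (2.87 ± 0.51), Cyp2c70 (-2.84 ± 0.53) and Suds3, a subunit gene of a histone deacetylase complex (-0.96 ± 0.18). Suds3 averaged 76.0 CPM in F_22h and 80.7 CPM in AL_22h, and 119 CPM in F_6h and 64.9 CPM in AL_6h. Each of the 3 calls was lost without AL_6h 1, AL_22h 1, AL_22h 3, F_6h 1, F_6h 2 or F_22h 1.

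Against the change of CR_missed over CR_fed, 122 genes differed, and those with the smallest p where a group's mean reached 10 CPM included Akap9 (1.87), Plekhf1 (-3.34), Hnrnpr (1.29), Pfas (1.84), Hnrnpd (1.75), Akr1c14 (-1.43) and Hnrnpa3 (1.31). Plekhf1, an endosomal protein gene, averaged 1.89 CPM in F_22h and 5.40 CPM in AL_22h, and 11.7 CPM in CR_missed and 3.28 CPM in CR_fed. Pfas, an enzyme of purine synthesis, averaged 14.1 CPM in F_22h and 6.27 CPM in AL_22h, and 7.08 CPM in CR_missed and 11.3 CPM in CR_fed.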

How the results depend on the processing

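The count of 1581 stayed between 1331 and 1915 genes under the alternatives other than DESeq2's test (2029), the replicate block (2049) and leaving out 1 library (604 to 1611). Deviations of same-numbered libraries of F_22h and AL_22h had r = -0.0216, 0.110 and 0.0190, and those of other pairs -0.0944 to 0.0846. With 3 libraries per group, these values cannot tell whether the numbers pair the libraries. The main fit has no block. The count of differences from 14 h was 1, and 5 with DESeq2's test, 0 with only the compared libraries (772 at an unadjusted p under 0.05), 0 with each of 3 limma fits (585, 595 and 1041), 4 without 2 libraries of a deviant clock, 4 without 6 libraries that stand apart and 1 to 4 without 1 library. The count of differences from 6 h was 3, and 44 with DESeq2's test, 1 with the replicate block, 5 with limma on rescaled TPM plus 0.1, 5 with limma and no minimum, 0 with the length trend removed (1000 unadjusted), 12 without those 2 libraries, 49 without those 6 and 0 to 19 without 1 library. The count of differences from the missed meal was 122, and 75 with no low-count filter, 370 with DESeq2's test, 238 with the replicate block, 290 without those 6 libraries and 16 to 268 without 1 library. The 2 libraries were AL_22h 2 and AL_0h 2. The 2 and 6 libraries were chosen after seeing the data. The cause of these shifts was not tested. Npas2 turned to 0.1945 without AL_22h 2, 0.2132 without the 2 and 0.2181 without the 6 libraries, and Arntl to 0.8522, 0.8702 and 0.8717; without 1 library they ranged from -7.4989 and from -1.7387 up to the values without AL_22h 2. Over the named genes and alternatives, 4815 values kept direction and call, 885 lost the call, 55 gained it and 6 reversed.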

Other observations

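Mitochondrial carriers not described above changed in both directions. Of 32 tested, 7 were higher and 3 lower, with 4 higher without AL_22h 2 and 3 without F_22h 1, and 1 lower without AL_22h 1, F_22h 1 or F_22h 2. Slc25a25, a carrier of ATP, magnesium and phosphate, had 576, 428 and 222 CPM in F_22h and 117, 112 and 99.2 CPM in AL_22h (1.90 ± 0.42). Slc25a34, an orphan carrier gene, had 11.5, 7.00 and 14.2 CPM in F_22h and 2.75, 4.88 and 2.01 CPM in AL_22h (1.77 ± 0.34). The groups did not overlap in either gene.

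Secreted liver factors and genes of liver zones were also called in part. Of 26 hepatokines and angiopoietin-like genes, 5 were higher and 6 lower. Leaving out AL_22h 1 gave 4 and 4, AL_22h 2 gave 3 and 4, AL_22h 3 gave 3 and 5, F_22h 1 gave 4 and 2, F_22h 2 gave 4 and 3 and F_22h 3 gave 6 and 4. Angptl4, which blocks lipoprotein lipase, had 245, 170 and 181 CPM in F_22h and 66.4, 11.5 and 67.5 CPM in AL_22h (2.03 ± 0.50), opposite in direction to Angptl8. Txnip, which restrains glucose uptake, had 207, 219 and 174 CPM in F_22h and 49.4, 37.1 and 43.9 CPM in AL_22h (2.20 ± 0.31). Of 22 genes of the pericentral zone, 5 were lower and none higher, where 5.4% of all tested genes were lower. Of 21 of the periportal zone, 4 were higher and none lower, where 6.06% of all tested genes were higher. In each of these lists, 1 call held in each of the 6 fits. Pericentral calls numbered 3 without AL_22h 1 or AL_22h 2, 4 without AL_22h 3 or F_22h 3 and 2 without F_22h 1 or F_22h 2. Periportal calls numbered 3 without AL_22h 1, AL_22h 2 or F_22h 1, 2 without AL_22h 3 or F_22h 2 and 5 without F_22h 3. Several belong to lists above, such as Cyp1a2, G6pc and Pck1. Glul, the glutamine synthetase gene that marks the innermost pericentral cells, had 1265, 462 and 792 CPM in F_22h and 810, 474 and 772 CPM in AL_22h, and its groups overlapped.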
